A study of Homo sapiens with 36 samples.

Results

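The messages described here encode the mitochondrial ribosomal proteins. They were chosen by name: protein-coding genes whose symbol starts with MRPL or MRPS and a digit, with a mean of at least 10 counts over the 9 input libraries. All 78 genes that carry such a symbol passed, of 60675 genes in the count tables. Of the 78, 49 have a large-subunit symbol (MRPL) and 29 a small-subunit symbol (MRPS). The lowest mean input count was 313 and the median 1029, so no gene lay near the limit of 10. All 78 also passed the filter on low counts before testing.

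RNA for the 36 libraries was taken from HEK293T, which is derived from human embryonic kidney and carries the SV40 large T antigen. Each of 3 lines expressed 1 fusion, YTHDF1-ADAR, YTHDF2-ADAR or YTHDF3-ADAR, induced with doxycycline at 1 µg/mL for 24 h. From each line, RNA immunoprecipitation (RIP) with antibodies to endogenous YTHDF1, YTHDF2 or YTHDF3 was sequenced next to input RNA, with 3 libraries for each of the 12 groups. Every line carried a fusion and had been given doxycycline, inputs included, so no group is without them. Whether a line is 1 clone, and whether the 3 libraries of a group are separate cultures, is not given in the sources used here. The p-values reflect only the variation among these libraries. The HEK293 markers NEFL, NEFM, INA and VIM were detected in all 9 inputs. Of the blood-cell markers, PTPRC and HBB had 0 counts in all 9, CD3E in 8 and LYZ in 2. Also detected in all 9 were KRT8, KRT18 and EPCAM (simple epithelium), COL1A1, COL3A1 and LUM (fibroblasts) and APOA1 (hepatocytes). DCN (fibroblasts) had 0 counts in 4, and ALB and TTR (hepatocytes) in 4 and 6. As counts scaled for library size (CPM), LYZ reached 0.194, against medians of 24.0 for KRT8, 18.8 for COL1A1 and 305 for VIM.

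YTHDF1, YTHDF2 and YTHDF3 are cytoplasmic proteins that bind N6-methyladenosine (m6A), a methyl mark found mostly near stop codons and in long exons of messenger RNA. A RIP measures which messages come down with the protein. The ADAR domain of a fusion converts adenosine to inosine near the bound site, and sequencing reads inosine as guanosine, so edited sites can record contact with the fusion. The mitochondrial ribosome translates the few proteins encoded in mitochondrial DNA, all of them parts of the respiratory chain and ATP synthase. Its RNA comes from mitochondrial DNA, whereas all of its proteins are made from nuclear messages on cytoplasmic ribosomes and imported.

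Coordinates of genes are those of the GRCh38 annotation used for counting. The genes lie on 21 chromosomes, and their union of annotated exons runs from 582 nt for MRPL41 to 16368 nt for MRPL42. Their median exon length was 2544 nt, against 4322 nt for all protein-coding genes. Promoter sequences in the RefSeq table (GRCh38.p14, 250 bases before to 50 after each gene's start) matched 69 of the 78. Factors of the ETS family and YY1 are known activators of genes for mitochondrial proteins, and their core letters were looked up on both strands. CCGGAAG, the ETS core, stood in 29 of the 69 promoters (42.0%, against 10.7% of all 27305 promoters), and AAGATGGCG, the YY1 core, in 13 (18.8%, against 1.85%). The NRF1 core, GCGCA and GCGC with 1 base of any kind between them, stood in 8 (11.6%, against 6.28%). At least 1 of the 3 stood in 43 promoters (62.3%, against 17.0%). A match is a description of letters and says nothing of binding. These stretches of 60 bases upstream of the start show the cores in 2 of the genes with the lowest RIP values (MRPL32 and MRPS18C) and 1 of those with the highest (MRPS26). Each is written 5′ to 3′ on the gene's strand, which is the plus strand for all 3, and the capitals mark the core on either strand.
MRPL32, YY1 core, chr7:42932127-42932186: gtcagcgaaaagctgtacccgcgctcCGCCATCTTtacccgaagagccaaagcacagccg
MRPS18C, ETS core, chr4:83455809-83455868: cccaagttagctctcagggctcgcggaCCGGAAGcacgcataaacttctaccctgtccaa
MRPS26, ETS core, chr20:3045988-3046047: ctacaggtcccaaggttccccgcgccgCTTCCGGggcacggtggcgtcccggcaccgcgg

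In total counts, the 78 genes took a smaller share of the RIP libraries than of the inputs. YTHDF3 RIP libraries held 0.180% ± 0.014, 0.219% ± 0.014 and 0.218% ± 0.013 of their counts in these genes in the YTHDF1-ADAR, YTHDF2-ADAR and YTHDF3-ADAR lines, against 0.316% ± 0.019, 0.362% ± 0.010 and 0.381% ± 0.007 in the inputs of the same lines (SD, n = 3 each). YTHDF2 RIP libraries held more, 0.220% ± 0.030, 0.306% ± 0.010 and 0.297% ± 0.008 in the same order of lines. For YTHDF1 RIP the shares were 0.236% ± 0.021, 0.195% ± 0.007 and 0.171% ± 0.025. In each line every RIP library lay below every input library of that line.

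**Figure D1:**
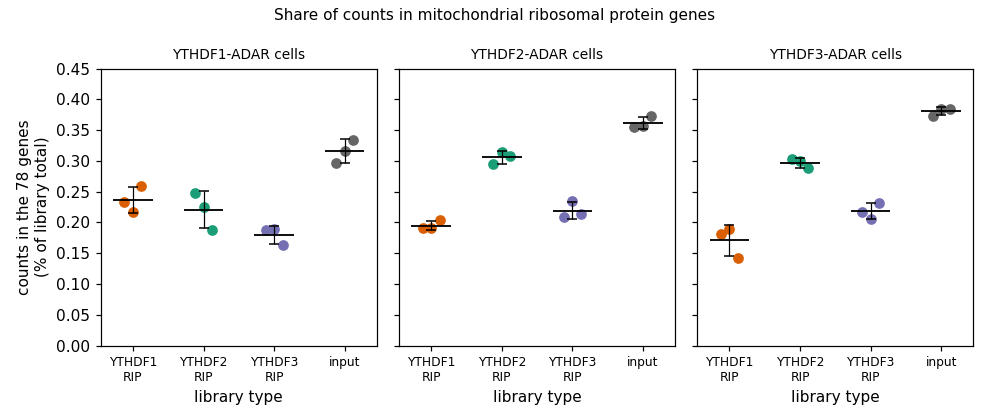
Share of each library's counts that fell in the 78 mitochondrial ribosomal protein genes (y axis, percent of total counts), by library type (x axis) and cell line (panels). Points are libraries, and bars are the mean and SD of 3 libraries. The 9 inputs lie between 0.297% and 0.385%, and the 3 RIP groups of each line lie below the inputs of that line.

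Library totals ran from 12.5 to 37.5 M counts, and from 20.7 to 35.3 M in the inputs. In the lines with YTHDF2-ADAR or YTHDF3-ADAR the 6 YTHDF1 RIP libraries stood apart, with 12.5 to 16.3 M counts. Protein-coding genes held 54.1 to 74.2% of their counts, against 71.5 to 92.4% in the other 30 libraries. Their snoRNA share was 0.696 to 4.35%, against 0.0360 to 0.564%, and their share of mitochondrial-genome mRNA 3.15 to 8.58%, against 0.561 to 3.06%. The part of these differences in the YTHDF1 RIP results of those 2 lines was not tested, so values from YTHDF1-ADAR cells are given first. Olfactory receptor genes held 31.9 to 53.3 CPM in these 6, against 2.76 to 18.5 CPM in the other 30. In YTHDF1-ADAR cells, replicate 3 of the YTHDF2 RIP also stood apart from its group. It had 15.9 M counts, a protein-coding share of 82.8%, a snoRNA share of 0.564% and 18.5 CPM in olfactory receptor genes. The other replicates had 26.6 and 27.2 M counts, 90.3% and 90.0%, 0.115% and 0.155%, and 6.09 and 7.43 CPM. Values given below without 1 library, or without the 6, keep the scaling factors and the genes tested of the full model. Estimating both again also replaced the library that TMM scales against in all but 2 of 36 fits without 1 library, and such values are named as scaled again.

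YTHDF3 RIP held less of these messages than input in all 3 lines. Calls are those of edgeR's quasi-likelihood test at an adjusted p under 0.05, and levels are CPM, counts scaled to a common library size by TMM. In YTHDF1-ADAR cells 71 of the 78 genes were lower in YTHDF3 RIP (background 20.1% of all genes tested) and 0 higher, with a median log2 fold change of -1.38. In YTHDF2-ADAR cells 69 were lower (background 16.9%) and 0 higher, with a median of -1.29. In YTHDF3-ADAR cells 74 were lower (background 16.1%) and 0 higher, with a median of -1.32. The medians over all genes tested in these comparisons were -0.23, 0.09 and 0.01. Of protein-coding genes, 8.43%, 7.90% and 7.38% had a log2 fold change below the median of the 78 in the 3 lines. In YTHDF3-ADAR cells all 3 RIP libraries lay below all 3 inputs for 76 of the 78 genes, against 22.4% of all genes. The 3 RIP comparisons of a line share their input libraries. Lower in all 3 lines were 67 of the 78 (background 12.6%). Given the backgrounds of single lines, most genes tested were lower in none. Of the 78, 4 were lower in none: MRPL19, MRPS5, MRPS27 and MRPS30. MRPL46, MRPS6 and MRPS15 also did not pass in YTHDF1-ADAR cells (-0.38, -0.23 and -0.38).

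MRPS36 (ENSG00000134056, chr5:69217760-69230158) had the lowest mean log2 fold change over YTHDF2 and YTHDF3 RIP in all lines and YTHDF1 RIP in YTHDF1-ADAR cells (7 comparisons), -2.36. Its protein was first assigned to the small subunit and is now known as a part of the alpha-ketoglutarate dehydrogenase complex, so it is a member here by symbol. In YTHDF3-ADAR cells MRPS36 had 1.73, 2.35 and 3.25 CPM in YTHDF3 RIP, against 11.7, 10.1 and 16.9 CPM in input. Each RIP library lay well below each input, and the log2 fold change was -2.40 ± 0.27 (SE, adjusted p = 8.83e-09). Next came MRPL32, a large-subunit protein that is cleaved after import by the m-AAA protease (mean -2.10). It had 6.82, 5.45 and 8.10 CPM in YTHDF3 RIP of YTHDF3-ADAR cells, against 28.6, 26.9 and 34.1 CPM in input. MRPL13 followed with a mean of -2.06 and MRPS18C with -2.05. MRPS36, MRPL32, MRPL13 and MRPS18C were lower in YTHDF2 and YTHDF3 RIP of every line. MRPS18C shares 40.2% of its exon length with ABRAXAS1 on the opposite strand, and these counts were made without strand, so reads of the pair cannot be told apart.

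YTHDF2 RIP also held less of these messages than input, by less. In YTHDF1-ADAR cells 60 genes were lower (background 15.5%) and 0 higher, with a median log2 fold change of -0.94, against -0.11 over all genes. Without RIP replicate 3, which stood apart, that median was -0.76 (-0.70 scaled again), and the part of its composition was not tested. In YTHDF2-ADAR cells 45 were lower (background 10.1%) and 1 higher (background 10.2%), with a median of -0.68, against 0.02 over all genes. In YTHDF3-ADAR cells 50 were lower (background 9.93%) and 1 higher (background 8.98%), with a median of -0.70, against 0.00 over all genes. The gene that was higher was MRPL14 in both lines. MRPL14 (ENSG00000180992, chr6:44113451-44127452) encodes a protein near the subunit interface, has 957 nt of exon and no annotated exon overlap. It had 72.1, 70.5 and 62.6 CPM in YTHDF2 RIP of YTHDF2-ADAR cells, against 41.0, 41.6 and 35.6 CPM in input, with no overlap (log2 fold change 0.80 ± 0.17, SE, adjusted p = 0.000875). In YTHDF3-ADAR cells it had 49.2, 53.9 and 64.5 CPM, against 40.8, 38.2 and 41.3 CPM (0.48 ± 0.17, adjusted p = 0.0488). That second call is lost without any 1 of 5 libraries: replicate 2 or 3 of the YTHDF2 RIP, or any input replicate (adjusted p 0.0827 to 0.235). It is also lost with the 6 libraries left out of the model (0.0668), with another library as the TMM reference (0.102) and with the replicate number as a block (0.0545). Lower in YTHDF2 RIP in all 3 lines were 44 genes (background 7.16%), and 17 were lower in none. With backgrounds of 15.5%, 10.1% and 9.93% in single lines, most genes tested were lower in none. MRPS26, a mitochondria-specific small-subunit protein, was among those 17, with 77.6, 77.7 and 73.1 CPM in YTHDF2 RIP of YTHDF2-ADAR cells, against 50.6 to 61.6 CPM in the 3 inputs. The groups did not overlap, but the difference did not pass (0.41), nor did it in YTHDF1-ADAR (0.32) or YTHDF3-ADAR cells (0.18). Under total counts it was called higher in YTHDF2-ADAR (0.61) and YTHDF1-ADAR cells (0.52). MRPS7, MRPS23 and MRPS25 were also among the 17, with values of -0.37 to 0.23 in the 3 lines. In YTHDF3 RIP MRPS7, MRPS23 and MRPS26 were lower in every line (-1.09 to -0.65), and MRPS25 in YTHDF1-ADAR (-0.42) and YTHDF3-ADAR cells (-0.46). The MRPS25 call in YTHDF1-ADAR cells is lost without YTHDF3 RIP replicate 3 or input replicate 1 or 2 (adjusted p 0.0528 to 0.172), and that in YTHDF3-ADAR cells without YTHDF3 RIP replicate 1 or 3 or input replicate 3 (0.0648 to 0.108). DESeq2 size factors (-0.31), another TMM reference (-0.31) and the 6 libraries left out (adjusted p = 0.0573) end the first, and total counts end both (-0.14 and -0.23). The MRPS26 call in YTHDF2-ADAR cells is lost without YTHDF3 RIP replicate 1 or 3 (0.101 and 0.0908) and under total counts (-0.36).

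In YTHDF1 RIP of YTHDF1-ADAR cells the genes split. There, 55 were lower (background 28.8%), 9 were higher (background 20.6%) and 14 passed in neither direction, with a median of -1.04, against -0.28 over all genes. Higher calls were thus a smaller share of the 78 than of all genes tested. The 9 higher genes encode 7 large-subunit and 2 small-subunit proteins, and they were lower than input with YTHDF3 in every line and with YTHDF1 in the other 2 lines. Under total counts 2 of those lower calls in YTHDF2-ADAR cells are lost, MRPL44 with YTHDF3 (-0.31) and MRPL27 with YTHDF1 (-0.08), the second also with protein-coding TMM (-0.17).

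MRPL36 (ENSG00000171421, chr5:1798385-1801366) encodes a small zinc-binding large-subunit protein. It had 61.0, 43.5 and 56.3 CPM in YTHDF1 RIP, against 12.8, 21.2 and 21.9 CPM in input. Each RIP library lay above each input (log2 fold change 1.52 ± 0.22, SE, adjusted p = 3.16e-07). MRPL14 had 92.6, 74.7 and 89.9 CPM, against 31.0, 31.0 and 38.3 CPM (1.36 ± 0.18, adjusted p = 3.99e-08). MRPS12, related to the bacterial protein S12 of the decoding centre, had 80.4, 80.5 and 98.4 CPM, against 37.7, 41.7 and 42.4 CPM (1.09 ± 0.27, adjusted p = 0.00108). These 3 of the 78 messages were more than 2-fold higher in RIP, with every RIP library above every input. Over all genes tested, 4183 of 31849 were called at least 2-fold higher. MRPL44, which has an RNase III-like fold, had 52.5, 45.5 and 56.2 CPM, against 20.5, 29.5 and 27.4 CPM (0.99 ± 0.16, adjusted p = 3.32e-06). MRPL27 had 49.6, 37.7 and 50.5 CPM, against 23.6, 25.2 and 26.1 CPM (0.88 ± 0.17, adjusted p = 3.35e-05). The naming rule did not pick the others for this comparison, and they were chosen after their values were seen. MRPL34 gave 0.86 ± 0.17, MRPS2 0.81 ± 0.20, MRPL57 0.60 ± 0.20 and MRPL17 0.52 ± 0.16. The rule named MRPL34, MRPL17 and MRPS2 for other comparisons or for edited sites, and did not name MRPL57. For all 9 genes the 3 RIP libraries lay above the 3 inputs, without overlap. The genes were called higher from these same libraries, so the separation is no further support. Its share over all genes was not computed. The call of MRPL57 is lost without input replicate 1 (adjusted p = 0.0615), and that of MRPL17 without YTHDF1 RIP replicate 3 (0.0956) and, scaled again, without input replicate 1 (0.0584). Without 1 replicate the count of higher genes ran from 8 to 10, and from 7 to 10 scaled again.

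**Figure D2:**
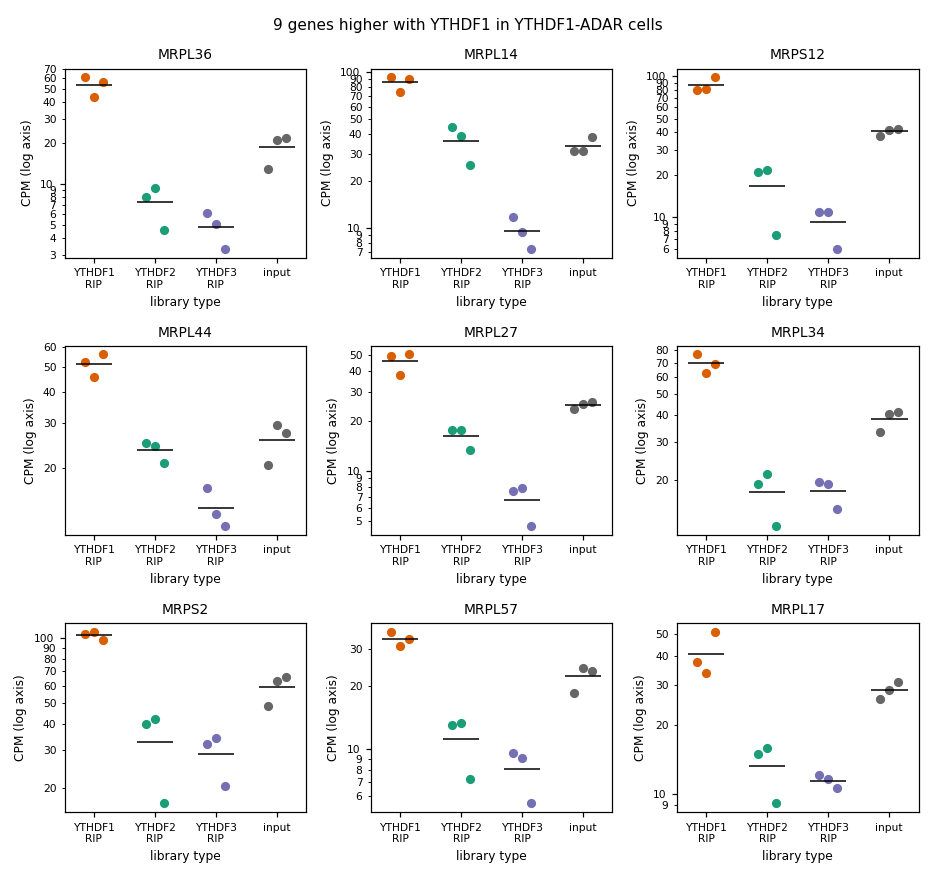
Levels of the 9 genes higher than input in YTHDF1 RIP of YTHDF1-ADAR cells (y axis, TMM-scaled CPM, log axis), by library type (x axis). Points are libraries of YTHDF1-ADAR cells and lines their mean of 3. YTHDF1 RIP lies above input in each panel, and YTHDF3 RIP lies below input. For MRPL36, YTHDF1 RIP runs from 43.5 to 61.0 CPM and input from 12.8 to 21.9 CPM.

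Among the 55 lower genes was MRPL42, the gene with the longest union of annotated exons in the set (ENSG00000198015, chr12:93467514-93516214). It had 23, 20.8 and 28.5 CPM in YTHDF1 RIP of YTHDF1-ADAR cells, against 109, 164 and 133 CPM in input (-2.49 ± 0.15, SE, adjusted p = 1.25e-14). MRPL19 had 21.3, 16.7 and 29.0 CPM, against 66.6, 107 and 85.5 CPM (-1.95 ± 0.18, adjusted p = 2.24e-11). In both genes each RIP library lay below each input. MRPL42 shares 1.72% of its exon length with RN7SL737P on the same strand, and 5 pseudogenes carry its symbol. The counts include multi-mapped reads and reads shared by genes, and their part in the MRPL42 values was not tested.

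In the YTHDF2-ADAR and YTHDF3-ADAR lines YTHDF1 RIP was lower for nearly the whole set. In YTHDF2-ADAR cells 74 genes were lower (background 33.4%) and 1 higher (background 41.8%), with a median of -1.49, against 0.20 over all genes. In YTHDF3-ADAR cells 77 were lower (background 32.4%) and 0 higher, with a median of -1.61, against 0.21 over all genes. Protein-coding genes, the class to which all 78 belong, had medians below 0: -0.48 (YTHDF2-ADAR line) and -0.45 (YTHDF3-ADAR line). Of the 15966 protein-coding genes tested, 8159 and 8016 were called lower, and 3570 and 3526 higher. These are the 6 libraries that stood apart. The 1 member called higher was MRPS25, a small-subunit protein, with 22.4% of its exon length overlapping NR2C2 on the opposite strand. MRPS25 had 114, 115 and 112 CPM in YTHDF1 RIP of YTHDF2-ADAR cells, against 75.5, 78.2 and 79.0 CPM in input (0.55 ± 0.16, SE, adjusted p = 0.00203). That call passed without any 1 of its 6 libraries. It is lost with another library as the TMM reference (0.25, adjusted p = 0.169), where the all-gene median moved to -0.10, and in 5 of the 6 fits scaled again (0.22 to 0.24). MRPL21, MRPS5 and MRPS28 were the 3 genes not called there (-0.53, -0.17 and -0.30), and with that other reference all 3 were called lower (-0.83, -0.47 and -0.60). In YTHDF3-ADAR cells MRPS25 was the 1 gene not called (0.32 ± 0.16, adjusted p = 0.0633). It was called higher there under DESeq2 size factors (0.48), total counts (0.65) and protein-coding TMM (0.76).

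The difference between lines was tested directly, as YTHDF1 RIP over input in YTHDF1-ADAR cells minus the mean of the other 2 lines. By this test 42 genes were higher in YTHDF1-ADAR cells (background 26.9%) and 13 lower (background 42.4%). The median was 0.57, against -0.45 over all genes and 0.27 over protein-coding genes. Of 15966 protein-coding genes tested, 6553 were higher and 4177 lower. MRPL36 differed by 3.28 ± 0.28, MRPL44 by 2.99 ± 0.21 and MRPL14 by 2.88 ± 0.22 (log2, SE), with adjusted p of 2.54e-12, 2.61e-14 and 2.39e-13. MRPS18C differed by -1.53 ± 0.24, MRPL39 by -1.15 ± 0.22 and MRPL42 by -0.97 ± 0.18. With TMM factors from protein-coding genes alone the all-gene median moved to -0.86, the median of the 78 was 0.16, and 27 genes were higher and 28 lower. Under total counts the median of the 78 was 0.31. With another library as the TMM reference the all-gene median moved to -0.11, the median of the 78 was 0.90, and 44 were higher and 4 lower. Without 1 library the median ran from 0.41 to 0.67 and the lower count from 9 to 20, the 20 without YTHDF1-ADAR YTHDF1 RIP replicate 3. Scaled again, they ran from 0.59 to 1.07 and from 3 to 13. So the size of this difference, and which direction holds more of the genes, turn on the scaling. For YTHDF2 and for YTHDF3 the same kind of difference, own line minus the mean of the others, gave 0 genes by edgeR at the adjusted limit (background 0% for each). At an unadjusted p under 0.05 it gave 2 and 0 of the 78 genes, with no share over all genes given here, and DESeq2 also called 0 for each.

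Over all 9 comparisons of RIP with input, 30 genes were lower in every one (background 4.19%), 55 in at least 7 (background 8.23%), and 10 were higher in at least 1 (background 68.3%). MRPS27 was lower in none of the 7 comparisons that leave out the 6 libraries. MRPS27 (ENSG00000113048, chr5:72219403-72320646) encodes a small-subunit protein with pentatricopeptide repeats. It had 136, 131 and 152 CPM in YTHDF3 RIP of YTHDF3-ADAR cells, against 134, 141 and 134 CPM in input. Its 7 log2 fold changes ran from -0.22 to 0.24, whereas it was lower with YTHDF1 in the YTHDF2-ADAR and YTHDF3-ADAR lines (-1.54 ± 0.14 and -1.71 ± 0.14). In YTHDF1-ADAR cells its YTHDF1 value of 0.24 (adjusted p = 0.145) was called higher under DESeq2 size factors (0.38, adjusted p = 0.0211) and under total counts (0.41, adjusted p = 0.00769), and without input replicate 2 (0.36, adjusted p = 0.0433). The next highest means over the 7 were those of MRPS25 (-0.17), MRPS26 (-0.22) and MRPL44 (-0.22).

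**Figure D3:**
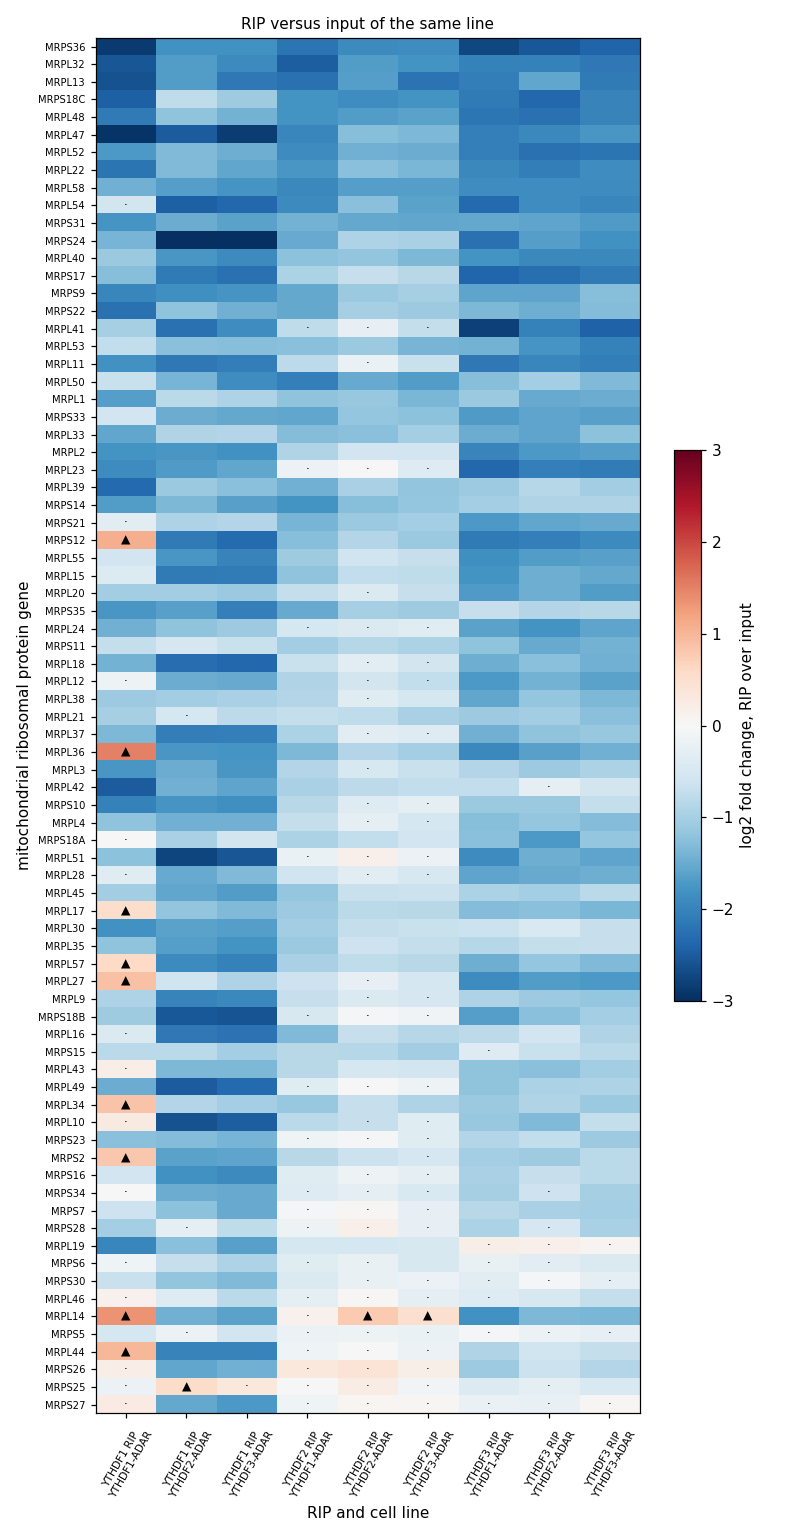
log2 fold change of RIP over input for the 78 genes (rows, ordered by their mean over 7 comparisons, lowest at the top) in the 9 combinations of RIP and line (columns). Blue is lower and red higher in RIP; a triangle marks a gene called higher, a dot one not called, and unmarked cells are called lower at an adjusted p under 0.05. MRPS36 heads the rows with a mean of -2.36, and MRPS27 ends them with -0.03.

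YTHDF3 RIP was set directly against YTHDF2 RIP within each line. In YTHDF1-ADAR cells 27 genes were lower in YTHDF3 RIP (background 10.7%) and 5, MRPS35, MRPS14, MRPL50, MRPL19 and MRPL30, higher (background 8.51%), with a median of -0.33, against -0.12 over all genes. In YTHDF2-ADAR cells 46 were lower (background 12.1%) and 2, MRPL19 and MRPL42, higher (background 8.33%), with a median of -0.62. In YTHDF3-ADAR cells 35 were lower (background 9.01%) and 1, MRPL19, higher (background 5.74%), with a median of -0.49. Of the higher genes, MRPL30 (0.40) and MRPL50 (0.78) were not picked by the naming rule for this comparison and were chosen after their values were seen. The call of MRPL30 is lost without replicate 2 or 3 of YTHDF2 RIP or replicate 1 or 2 of YTHDF3 RIP (adjusted p 0.0921 to 0.148), with the 6 libraries left out (0.0740) and with the replicate number as a block (0.0636). That of MRPS35 (0.82) is lost without YTHDF2 RIP replicate 3 (0.0531), and that of MRPL42 (0.51) without YTHDF3 RIP replicate 1 (0.0687) or YTHDF2 RIP replicate 2 (0.0740). In YTHDF3-ADAR cells the lower count was 22 without YTHDF3 RIP replicate 2. In YTHDF1-ADAR cells the median of -0.33 was -0.21 without YTHDF2 RIP replicate 2 and as close to 0 as -0.16 scaled again, where the lower counts of the 3 lines reached 16, 30 and 17.

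MRPL23, which sits at the exit of the nascent-chain tunnel, was one of the clearest. In YTHDF2-ADAR cells it had 12, 16.6 and 9.72 CPM in YTHDF3 RIP, against 54.6, 56.7 and 48.7 CPM in YTHDF2 RIP, while input had 52.6, 60.5 and 45.8 CPM. YTHDF2 RIP and input overlapped, and YTHDF3 RIP lay below both (YTHDF3 over YTHDF2 -2.19 ± 0.23, -2.06 ± 0.22 and -1.72 ± 0.22 in the 3 lines). MRPL51 gave -1.71 ± 0.22, -1.63 ± 0.22 and -1.39 ± 0.22, MRPL14 gave -1.93, -2.15 and -1.85, and MRPL27 gave -1.28, -1.45 and -1.18. MRPL19 (ENSG00000115364, chr2:75646783-75690851), whose bacterial relative lies at the subunit interface, shares 21.0% of its exon length with other genes and went the other way in every line. In YTHDF1-ADAR cells it had 92.4, 99.4 and 103 CPM in YTHDF3 RIP, against 65.9, 62.6 and 49.7 CPM in YTHDF2 RIP (0.72 ± 0.17, SE, adjusted p = 0.00192). The other lines gave 0.66 and 0.55. The call in YTHDF3-ADAR cells is lost without replicate 1 or 2 of YTHDF2 RIP or replicate 2 or 3 of YTHDF3 RIP (adjusted p 0.0646 to 0.104). That in YTHDF2-ADAR cells passed without any 1 library, but not when scaled again without YTHDF3 RIP replicate 1 (0.0953).

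In YTHDF1-ADAR cells YTHDF1 RIP was also set against the others. Against YTHDF2 RIP, 24 genes were higher (background 20.3%) and 20 lower (background 18.8%), and against YTHDF3 RIP 35 were higher (background 22.4%) and 12 lower (background 18.7%). The counts of lower genes were 33 and 22 without YTHDF1 RIP replicate 3. Scaled again without YTHDF3 RIP replicate 3, the genes higher than in YTHDF3 RIP were 22. MRPL36 differed by 2.86 ± 0.23 from YTHDF2 RIP and by 3.47 ± 0.24 from YTHDF3 RIP. MRPL34 and MRPL17 were higher than in YTHDF2 RIP by 1.99 and 1.61 (log2). MRPL42 was lower than in either (-1.51 and -1.76), as was MRPL19 (-1.41 and -2.13).

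By symbol, the MRPL messages had the lower medians in YTHDF3 RIP: -1.48, -1.41 and -1.43 in the YTHDF1-ADAR, YTHDF2-ADAR and YTHDF3-ADAR lines, beside -1.09, -1.07 and -1.01 for the MRPS messages. In YTHDF2 RIP they were -0.98, -0.66 and -0.71, beside -0.84, -0.69 and -0.58. The split follows the symbol and not the structure, so MRPS30 and MRPS36 are among the MRPS messages. These medians are descriptions, with no test between the 2 sets of symbols.

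The stalk and its base recruit translation factors. MRPL12, the stalk protein, was lower in YTHDF3 RIP of every line (-1.72, -1.41 and -1.60). It was lower with YTHDF2 in YTHDF1-ADAR cells (-0.90) and did not pass in the other lines (-0.54 and -0.74). It shares 69.5% of its exon length with another annotated gene, so its counts are uncertain. MRPL10 and MRPL11, the stalk base, were lower with YTHDF3 in every line (-1.14, -1.32 and -0.71 for MRPL10, and -2.14, -1.96 and -2.07 for MRPL11). At the tunnel exit, MRPL24 passed with YTHDF3 (-1.60, -1.78 and -1.58) and not with YTHDF2 (-0.52, -0.44 and -0.35), the same calls as for MRPL23.

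In the small subunit, MRPS12 and MRPS34 were among the messages not lower with YTHDF1 in YTHDF1-ADAR cells (1.09 and 0.00). MRPS22 was lower in all 9 comparisons, from -2.25 to -0.99. MRPS15 was lower in 8 of 9 and gave -0.38 with YTHDF3 in YTHDF1-ADAR cells. MRPS5, a relative of bacterial S5, was not called with YTHDF2 or YTHDF3 in any line (-0.25 to -0.07). MRPS30, which by structure is part of the large subunit despite its symbol, was not called with YTHDF3 (-0.32, -0.05 and -0.28), although in YTHDF1-ADAR cells it was called lower without YTHDF3 RIP replicate 3 or input replicate 1 (-0.42 and -0.47).

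MRPS18A, MRPS18B and MRPS18C are paralogs of bacterial S18. They did not have like values: with YTHDF2 in the 3 lines MRPS18C gave -1.79, -1.87 and -1.79, MRPS18A -0.94, -0.74 and -0.58, and MRPS18B -0.48, -0.03 and -0.11, of which none passed for MRPS18B. With YTHDF3 all 3 were lower in all lines (-2.11, -2.35 and -1.99 for MRPS18C, -1.26, -1.73 and -1.16 for MRPS18A, and -1.64, -1.25 and -1.01 for MRPS18B). MRPS18B had 31.8, 26.3 and 51.1 CPM in YTHDF3 RIP of YTHDF3-ADAR cells, against 76.4, 62.5 and 64.8 CPM in YTHDF2 RIP and 74.5, 78.5 and 67.5 CPM in input. Of the exon length of MRPS18A, 50.9% overlaps RSPH9 on the opposite strand.

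Exon length was examined because, across protein-coding genes, those of shorter exon length had lower values in RIP. It is the union of a gene's annotated exons and not the length of any 1 message. With YTHDF3 in YTHDF3-ADAR cells the median log2 fold change was -1.50 for the 14 members under 1500 nt, -1.27 for the 36 from 1500 to under 3000 nt and -1.19 for the 28 of 3000 nt or more. Protein-coding genes of the same classes had medians of -0.67, -0.43 and 0.17. With YTHDF2 in YTHDF2-ADAR cells the members' medians were -0.64, -0.69 and -0.52, beside -0.29, -0.16 and 0.13. With YTHDF1 in YTHDF1-ADAR cells they were -0.65, -1.06 and -1.15, beside -0.64, -0.44 and -0.07. So in the class of shortest exon length the YTHDF1 median was close to that of protein-coding genes of the same class, and in the longest class it was lower. Across the 78 genes, Spearman's rho between exon length and log2 fold change was 0.35, 0.31 and 0.31 for YTHDF3 in the 3 lines, 0.11, 0.07 and 0.11 for YTHDF2, and -0.16, 0.36 and 0.25 for YTHDF1. Over 15966 protein-coding genes it was 0.48, 0.42 and 0.46 for YTHDF3, 0.32, 0.27 and 0.31 for YTHDF2, and 0.17, 0.20 and 0.19 for YTHDF1. These correlations are across genes that share libraries and depth.

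MRPL41, the shortest by exon length, had 10.7, 6.96 and 7.06 CPM in YTHDF3 RIP of YTHDF3-ADAR cells, against 49.1, 47.5 and 37.5 CPM in input (-2.44 ± 0.34, SE, adjusted p = 1.64e-06), and was not called with YTHDF2 in any line. MRPL42, the longest by exon length, had 153, 137 and 124 CPM in YTHDF3 RIP of YTHDF2-ADAR cells, against 149, 165 and 185 CPM in input, which overlap (-0.27 ± 0.15, adjusted p = 0.16). MRPL19, of 8947 nt, had YTHDF3 values of 0.19, 0.14 and 0.08 in the 3 lines, none of which passed. Under total-count scaling its values in YTHDF1-ADAR and YTHDF2-ADAR cells were called higher (0.50 and 0.41), where the all-gene medians moved from -0.23 and 0.09 to 0.04 and 0.37. MRPL53, the second shortest by exon length, shares 99.4% of that length with another gene.

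**Figure D4:**
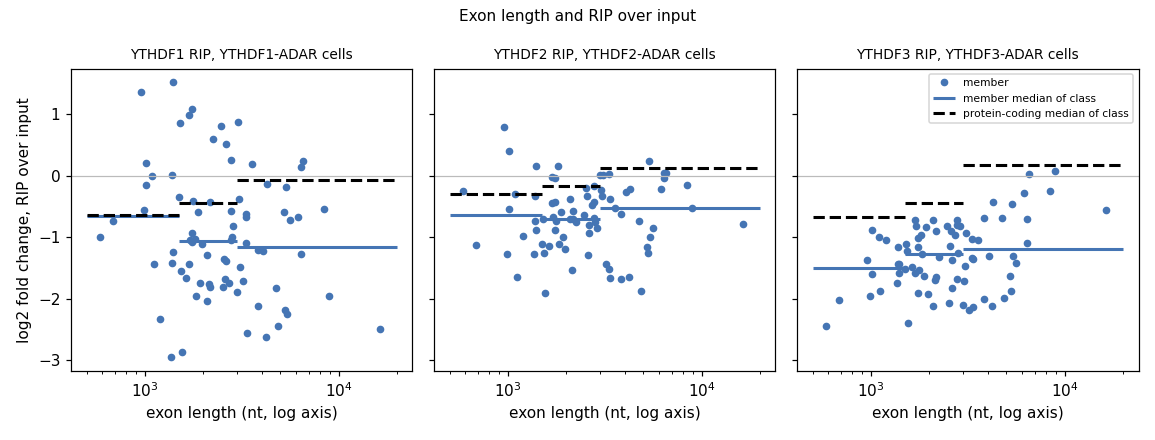
log2 fold change of RIP over input (y axis) against exon length (x axis, nt, log axis) for the 78 genes, for each RIP in the line with the fusion of the same protein (panels). Blue bars are the members' medians per length class and dashed black bars those of protein-coding genes. In the YTHDF3 panel the members' medians are -1.50, -1.27 and -1.19, below -0.67, -0.43 and 0.17 for protein-coding genes.

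Inputs were compared between lines. In bulk RNA, fewer cells with a message and less of it per cell cannot be told apart. In YTHDF1-ADAR input 7 genes were lower than in YTHDF2-ADAR input (background 4.3%) and 1, MRPS25 (0.49), higher (background 13.3%), with a median of -0.30, against 0.08 over all genes. Against YTHDF3-ADAR input 9 were lower (background 5.1%) and 0 higher, also with a median of -0.30. Between YTHDF2-ADAR and YTHDF3-ADAR inputs edgeR called 0 genes (background 3.42%). At an unadjusted p under 0.05 it gave 8 of the 78 genes, with no share over all genes given here, and DESeq2 called 1. The call of MRPS25 is lost without any 1 of 5 of the 6 inputs compared, all but YTHDF1-ADAR replicate 3 (adjusted p 0.0580 to 0.0962), and with another library as the TMM reference (0.112). The lower counts rest on single libraries. Without YTHDF1-ADAR input replicate 1 they were 0 and 0, with medians of -0.19 and -0.18. Against YTHDF2-ADAR input the count was 11 and 14 without YTHDF1-ADAR replicates 2 and 3, 4, 1 and 1 without YTHDF2-ADAR replicates 1, 2 and 3, and 1 with the 6 libraries left out. Against YTHDF3-ADAR input it was 4 without YTHDF3-ADAR replicate 1 or 2. With another library as the TMM reference the counts were 19 and 13 and the medians -0.42 and -0.40, and scaled again without YTHDF1-ADAR replicate 3 the counts were 34 and 27 and the medians -0.57 and -0.56. The genes of smallest p were MRPS18A (-0.63), MRPS14 (-0.48) and MRPL30 (-0.44) against YTHDF2-ADAR, and MRPS14 (-0.65), MRPS21 (-0.66) and MRPL45 (-0.75) against YTHDF3-ADAR. Per kilobase of exon the highest input levels were those of MRPL12 (132 CPM per kb), MRPS34 (107) and MRPL37 (85.7), and the lowest those of MRPL13 (5.11), MRPL22 (4.36) and MRPL46 (3.49).

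Other messages for mitochondrial translation did not share 1 pattern. Of 5 ribosome subunits whose symbol does not start with MRP, 4 were lower with YTHDF3 in each line (backgrounds 20.1%, 16.9% and 16.1%) and 0 higher, among them CHCHD1 (-2.29, -1.79 and -1.90), AURKAIP1 (-2.02, -1.47 and -1.90) and GADD45GIP1 (-0.85, -0.86 and -0.90). With YTHDF2, 1, 0 and 0 of the 5 were lower. Of 15 translation factors, 5, 6 and 6 were lower and 2, 1 and 2 higher with YTHDF3 (backgrounds of higher calls 11.5%, 15.2% and 13.5%). SLIRP, an RNA-binding partner of LRPPRC, gave -1.73, -1.69 and -1.80 with YTHDF3. With YTHDF2, 7, 5 and 6 of the 15 were lower (backgrounds 15.5%, 10.1% and 9.93%) and 1, 2 and 1 higher (backgrounds 8.66%, 10.2% and 8.98%), among the lower SLIRP (-1.67, -1.48 and -1.47), the initiation factor MTIF3 (-1.11, -1.21 and -1.18) and the release factor MTRF1 (-0.96, -1.09 and -1.07). Of 29 factors for assembly and rRNA modification, 12, 10 and 11 were lower and 1, 1 and 1 higher with YTHDF3. C1QBP, which binds mitochondrial RNA, gave -1.81, -1.52 and -1.66, and MALSU1, a factor bound to the large subunit, -0.69, -0.75 and -0.56. Of 17 mitochondrial aminoacyl-tRNA synthetases, which charge the tRNAs, 5, 6 and 4 were lower and 3, 5 and 2 higher with YTHDF3. With YTHDF2, 3, 0 and 0 of them were lower and 6, 7 and 5 higher, above the same backgrounds of 8.66%, 10.2% and 8.98%, with medians of 0.26, 0.25 and 0.29. HARS2, the histidine enzyme, was higher with YTHDF2 in each line (1.45, 1.40 and 1.02). Of 15 rRNAs and mRNAs encoded in mitochondrial DNA, 0 passed with YTHDF2 in any line (MT-CO1 gave -0.97, -0.83 and -0.19, and MT-RNR1 -1.38, -1.93 and -2.04), and 3, 5 and 2 were lower with YTHDF3.

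The authors' deposited table of RIP against input, whose lines are not stated in the sources used here, gives log2 fold changes below 0 for 78, 71 and 77 of the 78 genes with YTHDF1, YTHDF2 and YTHDF3. Of these, 70, 48 and 72 in the authors' deposited table have an adjusted p under 0.05 (backgrounds 16.6%, 6.43% and 9.79% of the 60582 genes it lists), 0 genes do above 0, and the medians are -1.56, -0.67 and -1.27.

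Editing was read from the authors' deposited tables, 1 for each line with replicates pooled, so it has no replicate error here and its read depth is unknown. The level used is the percent of edited reads per site, averaged over a gene's sites. No group lacked a fusion, so editing by the fusion and by the cells' own ADAR cannot be told apart at these sites. In the YTHDF1-ADAR line 44 of the 78 genes were listed with 252 sites (56.4%, against 49.1% of protein-coding genes tested). The YTHDF2-ADAR line listed 19 genes with 90 sites (24.4%, against 15.01%), and the YTHDF3-ADAR line 19 with 115 sites (24.4%, against 18.4%). In all 3 tables were 13 genes, in at least 1 were 48, and 26 were listed for YTHDF1-ADAR alone. YTHDF2-ADAR and YTHDF3-ADAR shared 16 of their 19 genes each. Listed genes were more abundant: median input counts were 1269, 1863 and 1863 in the 3 lines for listed genes and 858, 925 and 869 for the rest. They were also longer, with median exon lengths of 2769, 2794 and 2767 nt, beside 2015, 2171 and 2172 nt for the rest.

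The lines differed in where the sites lay. In YTHDF1-ADAR cells MRPS27 had 37 sites, MRPS25 had 25, MRPS12 had 20, MRPL34 had 17 and MRPS2 had 16. In YTHDF2-ADAR cells MRPL42 had 36 of the 90 sites, MRPL19 had 11 and MRPL30 had 9. In YTHDF3-ADAR cells MRPL42 had 48 of the 115, MRPL19 had 15, and MRPL30 and MRPS10 had 8 each. Of the 9 genes higher in YTHDF1 RIP of YTHDF1-ADAR cells 8 were listed in that line's table, as were 12 of the 14 not called and 24 of the 55 lower (43.6%), beside the 49.1% of protein-coding genes tested. The mean level in that RIP was 63.4 CPM for the genes called higher, 56.8 CPM for those not called and 17.5 CPM for those lower, and its part in the listing was not tested.

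Levels in YTHDF1-ADAR cells had medians over 44 genes of 2.62% in YTHDF1 RIP, 2.10% in YTHDF2 RIP and 2.17% in YTHDF3 RIP, against 1.76% in input. Over all 7800 genes with a value in every arm they were 3.71%, 3.39% and 3.18%, against 2.50%. The level was above input for 35, 32 and 24 of the 44, beside 82.5%, 77.6% and 75.8% of all genes. By the authors' adjusted p, 5 of the 44 differed with YTHDF1 (background 8.15%), 0 with YTHDF2 (background 1.64%) and 1 with YTHDF3 (background 1.13%), all of them above input. The YTHDF1 count is near its background. MRPL30 had 14.1% in YTHDF1 RIP, against 2.84% in input, over 5 sites (authors' adjusted p = 0.00969). MRPS21 had 14.4%, against 5.39%, at 1 site (2.54e-09). MRPL10 had 7.87%, against 3.40%, over 6 sites, MRPS16 had 4.27%, against 1.74%, over 15 sites, and MRPL16 had 2.95%, against 1.48%, over 4 sites. The highest levels were those of MRPS18A, with 29.5%, against 21.0% at 1 site, and MRPL36, with 26.7%, against 20.6% over 3 sites (0.116).

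**Figure D5:**
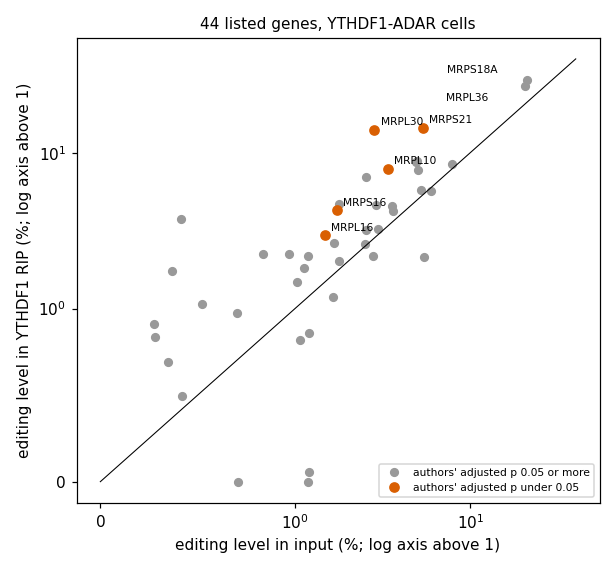
Editing level in YTHDF1 RIP (y axis) against input (x axis) for the 44 listed genes in YTHDF1-ADAR cells, in percent, linear below 1 and logarithmic above. The line marks equal levels, and orange points are genes with an authors' adjusted p under 0.05. Above the line lie 35 of the 44 genes, and MRPL30 has 14.1% in RIP and 2.84% in input.

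In the YTHDF2-ADAR and YTHDF3-ADAR lines, 17 genes in each had a value in every arm. The YTHDF2-ADAR medians were 0.433%, 1.07% and 1.48% in YTHDF1, YTHDF2 and YTHDF3 RIP, against 0.993% in input. Over all 2199 genes with a value in every arm they were 0.505%, 0.928% and 1.19%, against 0.942%. Of the 17, 3, 7 and 11 were above input and 12, 10 and 6 below it, beside 31.7%, 49.2% and 58.6% of all genes above. The YTHDF3-ADAR medians were 0.873%, 0.765% and 1.33%, against 0.996%. Over all 2763 genes they were 0.511%, 1.01% and 1.35%, against 1.11%. Of the 17, 6, 8 and 7 were above input and 11, 9 and 10 below it, beside 27.8%, 45.6% and 58.6% above. Group medians and genes did not always point the same way: YTHDF2 RIP in YTHDF2-ADAR cells and YTHDF3 RIP in YTHDF3-ADAR cells had a higher median than input, but the median of the gene-wise differences was -0.0842 and -0.0478 percentage points. With at least 3 sites both medians were below that of input (1.49% against 2.01%, and 1.99% against 2.02%). By the authors' adjusted p, 0, 0 and 1 of the 17 differed in YTHDF2-ADAR cells (backgrounds 2.77%, 0.227% and 1.41%) and 1, 0 and 1 in YTHDF3-ADAR cells (backgrounds 2.86%, 0.109% and 1.95%). MRPL30 had 6.51% in YTHDF3 RIP of YTHDF2-ADAR cells, against 2.56% in input (authors' adjusted p = 0.000109). MRPL19 had 8.13% in YTHDF3 RIP of YTHDF3-ADAR cells, against 4.51% in input over 15 sites (2.86e-06), and 1.56% in YTHDF1 RIP (0.0266). MRPL42 had 4.85% in YTHDF3 RIP, 5.22% in YTHDF2 RIP and 1.96% in YTHDF1 RIP of YTHDF3-ADAR cells, against 4.64% in input, and none of the 3 passed. In that line both messages were also less abundant in YTHDF1 RIP than in input (-1.64 ± 0.18 and -1.58 ± 0.15).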

How the data were processed

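RNA of 36 libraries, 3 in each of 12 groups set by the labels, was compared. Per the labels' protocols, RNA was treated with DNase, depleted of rRNA and made into directional libraries. Per the submitters' processing notes, the authors used STAR 2.7.7, featureCounts 2.0.1, DESeq2 and build GRCh38/hg38. Per the file headers, the deposited counts (Ensembl 102 plus a rat Apobec1 sequence, left out here) ignore marked duplicates and strand, and count multi-mapped reads and reads shared by genes. Genes with copies, such as the 36 members with pseudogenes by symbol, and overlapping genes therefore share counts. Exons of 41 of the 78 members overlap another annotated gene, 28 of them over more than 10% of the exon length. The authors' deposited comparison table lists for each gene its mean signal, log2 fold change and p-value, and served for symbols and biotypes. The authors' deposited editing tables list the number of sites with their score, p-value and odds ratio as a natural log. The level is 100 times score over sites. No count column was left out (0 not used).

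The members and lists were chosen with earlier results of these data known. Genes passing filterByExpr (31849 of 60675) were fitted in 1 model of 12 groups with TMM scaling (edgeR 4.0.16, R 4.3.3, robust glmQLFit, glmQLFTest, Benjamini-Hochberg over all genes, limit 0.05). The script was tested on simulated counts first. SE is the absolute log2 fold change over the square root of F. No 2 libraries held identical values. Depth was 12.5 to 37.5 M counts, and precision is given as SE or as SD over 3 libraries. Alternatives were DESeq2 size factors, total counts, TMM from protein-coding genes, no filter, DESeq2 1.42.0, members without exon overlap, a replicate block, each replicate left out and, for editing, at least 3 sites. Chosen after seeing the data were the 6 outlying YTHDF1 RIP libraries left out, another TMM reference library (replicate 2 of YTHDF3 RIP in YTHDF1-ADAR cells), and libraries left out with the scaling and genes of the full model kept. Without 1 library and with both estimated again, 32615 to 32988 genes were tested and edgeR chose that reference in 25 of 36 fits and the full model's, replicate 1 of YTHDF3-ADAR input, in 2. Named genes followed a rule: per comparison with input every member not lower where these were 8 or fewer, otherwise the 5 highest; the 4 lowest and 4 highest means over 7 comparisons; the 3 longest and shortest; the 3 of smallest p per direction between RIPs, lines and inputs; most edited sites and highest levels; and stalk, tunnel, MRPS18 and 4 small-subunit proteins. Protein sequences were not used here.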

Additional observations from a re-analysis of the deposited data

Results flagged for a closer look

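A test of the difference between lines picked out the YTHDF1 RIP. YTHDF1 RIP over input was, in YTHDF1-ADAR cells, above the mean of the other lines for 42 of the 78 genes (background 26.9%) and below it for 13 (background 42.4%), by edgeR at an adjusted p under 0.05. These backgrounds cover all genes tested, non-coding genes included. Of 15966 protein-coding genes tested, 6553 were above and 4177 below. The split was 27 and 28 with TMM factors from protein-coding genes, and 44 and 4 with another library as the TMM reference. Without YTHDF1-ADAR YTHDF1 RIP replicate 3, with the scaling kept, it was 34 and 20. The named genes of smallest p were MRPL44 (2.99), MRPL14 (2.88) and MRPL36 (3.28) above, and MRPS18C (-1.53), MRPL42 (-0.97) and MRPL39 (-1.15) below, as log2 differences. Outside YTHDF1-ADAR cells, the 6 libraries of this RIP are shallow and hold more snoRNA and mitochondrial mRNA, and the part of that in these differences was not tested.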

How the results depend on the processing

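The median of the 78 genes stayed below 0 in all 9 comparisons of RIP with input under every alternative run, between -0.48 and -1.98, and every count of genes lower than input stayed within the tolerance for counts (1.5 times). Counts without 1 replicate are given as a range with the scaling and genes kept, then with both estimated again. Lower genes in YTHDF3 over YTHDF2 RIP ran from 19 to 39 and from 16 to 34 in the YTHDF1-ADAR line, from 33 to 43 and from 30 to 42 in the YTHDF2-ADAR line, and from 22 to 32 and from 17 to 32 in the YTHDF3-ADAR line. For YTHDF1 over YTHDF2 RIP the lower count ran from 16 to 33 and from 16 to 32. For YTHDF1 over YTHDF3 RIP the higher count ran from 27 to 38 and from 22 to 36, and the lower from 10 to 22 in both. The lower count in the YTHDF1 difference between lines ran from 9 to 20 and from 3 to 13. The lower counts of YTHDF1-ADAR input ran from 0 to 14 and from 0 to 34 against YTHDF2-ADAR, and from 0 to 11 and from 0 to 27 against YTHDF3-ADAR. For YTHDF1-ADAR against YTHDF2-ADAR input, other settings gave 16 (DESeq2 size factors), 1 (total counts), 3 (protein-coding TMM), 22 (no filter), 18 (DESeq2), 19 (another TMM reference), 27 (the 6 libraries left out, scaled again) and 1 (the same, scaling kept). Between YTHDF2-ADAR and YTHDF3-ADAR inputs, total counts and DESeq2 gave 1 each. YTHDF1 over YTHDF3 RIP gave 20 lower genes under total counts and 20 with the 6 libraries left out and scaled again (11 with the scaling kept). YTHDF1 over YTHDF2 RIP was lower for 16.2% of the genes without exon overlap. The YTHDF1 difference gave 27 higher and 28 lower under protein-coding TMM, 22 lower under total counts and 4 lower with another TMM reference. With at least 3 edited sites the median level in YTHDF1-ADAR cells was 3.20% in YTHDF2 RIP, against 2.15% in input. In YTHDF2-ADAR cells it was 1.02%, 1.49% and 2.29% in YTHDF1, YTHDF2 and YTHDF3 RIP, against 2.01% in input, and in YTHDF3-ADAR cells 1.76% and 1.99% in YTHDF2 and YTHDF3 RIP, against 2.02% in input. The sign of RIP minus input reversed for YTHDF2 RIP of YTHDF2-ADAR cells (-0.526 points) and YTHDF3 RIP of YTHDF3-ADAR cells (-0.0282 points). The cause was not tested. Of 486 medians of the 78 genes under alternatives, 101 moved by more than their SD over libraries. Of 2768 values of single genes, 2635 kept their side of the limit, 103 lost the call and 30 gained one.

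Libraries with the same replicate number showed no pairing common to all lines. Of 27 pairs of a RIP library with the input of its number, 4 had a correlation of deviations over 0.1 (median -0.003). In 11 the RIP library correlated best with its own number. Most of these were in YTHDF3-ADAR cells, where the correlation ran from -0.026 to 0.133, so pairing in that line is not settled. With the number as a replicate block, genes lower with YTHDF1, YTHDF2 and YTHDF3 were 53, 58 and 70 in YTHDF1-ADAR cells, 74, 44 and 69 in YTHDF2-ADAR cells and 77, 47 and 73 in YTHDF3-ADAR cells.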

Other observations

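Messages around the mitochondrial ribosome spread widely in these RIPs. Among the synthetases, AARS2 and TARS2 were named by the same rule as HARS2: with YTHDF2 they gave 0.89, 0.86 and 0.76, and 0.35, 0.56 and 0.40, in the YTHDF1-ADAR, YTHDF2-ADAR and YTHDF3-ADAR lines. MT-RNR2, the large rRNA of the mitochondrial ribosome, was lower with YTHDF3 in each line (-3.78, -3.95 and -3.36), although rRNA was depleted before sequencing. MRPL47 was chosen after its values were seen, as the gene of lowest value with YTHDF1 in YTHDF1-ADAR cells. It had 1.69, 2.11 and 3.61 CPM in YTHDF1 RIP, against 15.7, 21.1 and 21.1 CPM in input (-2.95 ± 0.22, SE).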
